A study of Mus musculus with 3 samples.

Results

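Tankyrase, the enzyme that the small molecule XAV939 inhibits, and the β-catenin destruction complex on which it acts were followed at the RNA level through 10 genes: the tankyrases Tnks and Tnks2, the ligase gene Rnf146, the scaffolds Axin1 and Apc, the kinases Csnk1a1, Gsk3a and Gsk3b, the ligase adaptor Btrc, and Ctnnb1, which encodes β-catenin itself. The members were the direct machinery of the inhibitor, chosen by symbol, and every array probe whose RefSeq accession belongs to them was taken. That gave 17 probes for the 10 genes, of 21153 genes that could be named on the array. Of the 17, 16 were tested, and all 10 genes had at least 1 tested probe.

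The tested cultures were Hopx-/- embryoid bodies grown with XAV939 (12.5 µM), called null plus XAV939 below, and each was set on a 2-colour Agilent array directly against Hopx+/- embryoid bodies, called het, for which the labels name no inhibitor. Both came from mouse embryonic stem cells derived from blastocysts on STO feeder cells with a MEK1 inhibitor, and both were taken on day 8 of a cardiac differentiation that started in hanging drops and continued in medium with VEGF, bFGF, FGF10 and ascorbic acid. The 3 arrays are called biological replicates. The sources used here do not give the number of stem cell lines per genotype, and since the series holds no null culture without XAV939 and no het culture with it, the effect of the genotype and that of the inhibitor cannot be told apart.

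Cells without a Wnt signal keep cytoplasmic β-catenin low through the destruction complex. Axin and APC hold β-catenin beside casein kinase 1α, which adds a priming phosphate, and beside GSK-3, which extends the phosphorylation; the marked protein is then bound by β-TrCP, the product of Btrc, and degraded. Tankyrases attach poly(ADP-ribose) to axin, RNF146 reads that mark and has axin degraded, and XAV939 blocks this step, so that axin protein accumulates and β-catenin falls. These are events between proteins, whereas the arrays measured RNA only. In the early embryo and in embryonic stem cells Wnt signalling drives the formation of mesoderm, and a later drop in it favours heart muscle.

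All values below are log2 ratios of null plus XAV939 over het, so that 1 means a doubling in the null cultures, given as the mean over the 3 arrays ± SD (n = 3). By the labels Cy5 held the null RNA throughout. Over the tested probes, however, replicate 3 ran against the others, with correlations of -0.878 with replicate 1 and -0.908 with replicate 2, where replicates 1 and 2 reached 0.965. Its sign was reversed here, as in the authors' own value table, where replicate 3 follows Cy3 over Cy5. This direction is likely, on the basis of the labels of 2 arrays, the authors' values and Hopx, and it is not settled. With the opposite direction every sign in the text would turn, and the counts of higher and lower members would change places (4 higher and 1 lower in place of 1 and 4). With replicate 3 left as labelled limma called no probe (0 higher and 0 lower, against 30 and 66 at an unadjusted p under 0.05).

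Hopx, the targeted gene, had a processed signal of 346.0, 554 and 307 in the null cultures, against 2619, 4043 and 3038 in het. Its ratio was -2.71 ± 0.05 (limma adjusted p = 3.46e-07). The sources used here do not say whether this probe lies in the deleted part. The share of probes well above background ran from 56.6% to 68.0% over arrays and dyes. All 8 heart muscle markers were well above background in both groups on every array. Their summed signal ran from 112473 to 181035 in the null cultures and from 375016 to 528014 in het, and all 8 fell. All 8 endoderm markers fell as well, with sums from 8179 to 16082 in the null cultures and from 235335 to 366195 in het. Of 8 pluripotency and epiblast markers 6 rose and 2 fell, with sums from 134625 to 227559 in the null cultures and from 26482 to 37890 in het; of 8 feeder fibroblast and matrix markers 1 rose and 5 fell, with sums from 45417 to 84890 in the null cultures and from 123798 to 231136 in het. Of the smaller lists, 4 of 6 endothelial, 4 of 5 tested blood, 3 of 4 tested neural and 2 of 3 tested smooth muscle markers rose, and 1 endothelial and 1 smooth muscle marker fell. Their sums ran from 13371 to 18772 in the null cultures and from 6172 to 11892 in het for endothelium, and from 61287 to 64301 in the null cultures and from 20317 to 43719 in het for blood. For neural markers they ran from 18724 to 30372 in the null cultures and from 2623 to 3689 in het, and for smooth muscle from 155797 to 227450 in the null cultures and from 149016 to 223309 in het. On no array did the blood marker Ptprc stand well above background in the null cultures, the neural markers Neurog2 and Pax6 in het, or Myh11, of smooth muscle, in either group. The part these cell types have in the values below was not tested, and in bulk RNA fewer cells of a type and less RNA per cell cannot be told apart.

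Most of the 10 genes moved by less than 0.436, the median size of change over all tested genes, and Btrc moved most. Of the 10 genes, each read at its brightest tested probe, 1 rose (Btrc), 4 fell (Gsk3b, Apc, Csnk1a1 and Tnks) and 5 did not pass (Axin1, Rnf146, Tnks2, Ctnnb1 and Gsk3a). That is 50% of the members, against 64.0% of all 14705 tested genes by the same rule (31.3% higher and 32.7% lower; 60.2% of all 24376 tested probes, 28.7% higher and 31.4% lower), so being called is no mark of this group. The members' median ratio was -0.11 and their median size 0.32, against -0.011 and 0.436 over all tested genes. Btrc was the only member called with a size of 1 or more at its brightest probe; 17.3% of all tested genes were, and 7.56% had a larger size than Btrc. The count of falls depends on the processing: 2 members fell with local backgrounds marked as outliers kept, 1 with median centring in place of loess, and 2 without replicate 2. Gsk3b did not pass with median centring (-0.38, adjusted p = 0.198), Apc with marked backgrounds kept (-0.21, adjusted p = 0.181) and Csnk1a1 with median centring (-0.09, adjusted p = 0.801), the Feature Extraction log ratio (-0.34, adjusted p = 0.0508) or without replicate 2 (-0.41, adjusted p = 0.0601). Counted by probes, 2 of the 16 rose, 8 fell and 6 did not pass (62.5% called).

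**Figure D1:**
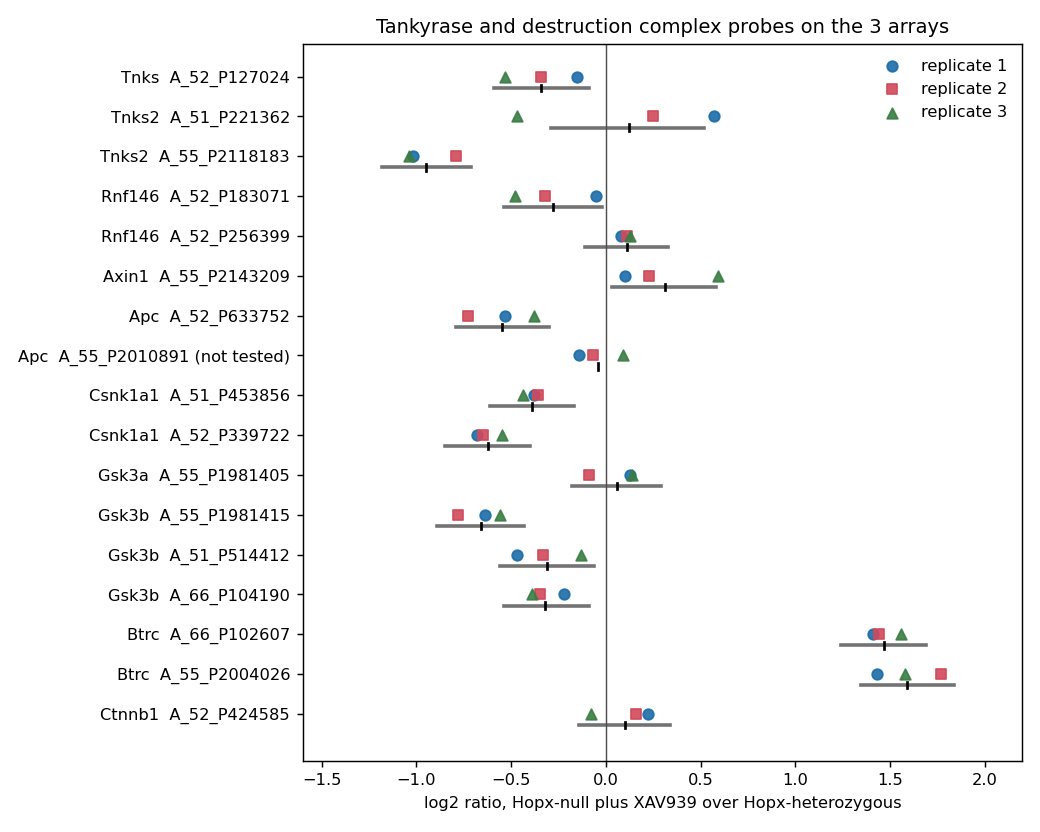
Log2 ratio of null plus XAV939 over het (x axis) for each of the 17 member probes (rows, grouped by gene). Symbols are the 3 arrays, the black tick is their mean and the grey bar the 95% confidence interval from limma, which the untested Apc probe lacks. Both Btrc probes lie between 1.41 and 1.77 on every array, the 3 Gsk3b probes lie below 0 on every array, and the Tnks2 probes stand apart from each other.

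**Figure D2:**
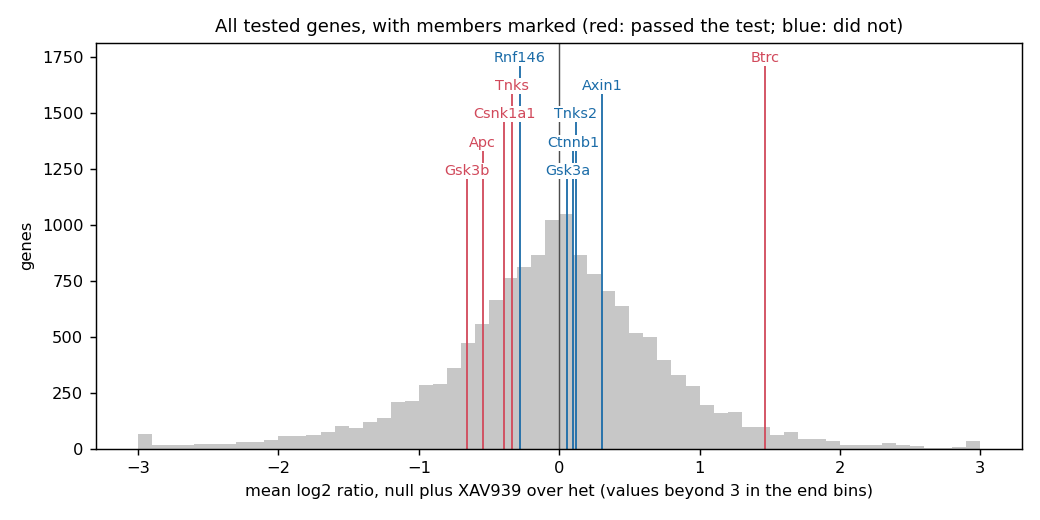
Number of tested genes (y axis) by mean log2 ratio of null plus XAV939 over het (x axis, bins of 0.1). Vertical lines mark the 10 members, red where they passed the test and blue where they did not; 9 lie between -0.66 and 0.31, inside the bulk of all genes, and Btrc lies at 1.47.

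Tankyrase itself was read by 3 probes. Tnks, the larger of both tankyrases, had a processed signal (the authors' background-subtracted and dye-normalised intensity, not scaled between arrays) of 2099, 2869 and 2249 in the null cultures on replicates 1, 2 and 3, against 2203, 3421 and 3204 in het. It was lower in the null cultures on each array. The ratios were -0.15, -0.34 and -0.53, a mean of -0.34 ± 0.19 or 1.26-fold lower (limma adjusted p = 0.0258). The call rested on the processing. It was lost in 7 of the 16 alternatives other than the direction of replicate 3, 1 of them without replicate 2 (-0.34, adjusted p = 0.128), and adjusted p ran from 0.00093 to 0.66 over all 16.

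The Tnks2 probes, which carry the same accession, disagreed. The brighter, A_51_P221362, had 45224, 61886 and 42170 in the null cultures and 34229, 54567 and 55594 in het. It was higher in the null cultures on replicates 1 and 2 and lower on replicate 3, with ratios of 0.57, 0.25 and -0.47 and a mean of 0.12 ± 0.53 (adjusted p = 0.589, 95% confidence interval -0.29 to 0.52). Without replicate 3 it passed as higher (0.41, adjusted p = 0.00295). The sign changed on replicate 3. The null RNA lay in Cy5 on replicates 1 and 2 and, by the turned direction, in Cy3 on replicate 3. Only replicate 3 had that orientation, so a dye effect cannot be told apart from any other difference of this array. In a fit with dye as a term, an alternative chosen after the data were seen, the ratio of this probe was -0.03 (adjusted p = 0.791) and its dye component 0.44 (adjusted p = 0.0118), past the threshold like that of 10.2% of all tested probes.

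The dimmer Tnks2 probe, A_55_P2118183, had 647, 1192 and 802 in the null cultures, against 1395, 2234 and 1661 in het. Here the null cultures were lower on every array, and by similar amounts. The ratios were -1.02, -0.79 and -1.04 (-0.95 ± 0.14, 1.93-fold lower, adjusted p = 7.88e-05), with a dye component of 0.07 (adjusted p = 0.645). The ratio at the brighter probe exceeded that at the dimmer one by 1.59, 1.04 and 0.57 on the 3 arrays. The mean of both probes gave -0.41 (adjusted p = 0.0144), so that the direction of Tnks2 depends on the probe. Opposite calls at probes of the same gene occurred in 199 of the 3799 genes read by more than 1 tested probe; Tnks2 is not counted there, since its brighter probe was not called. Tnks less Tnks2 at the brighter probe was -0.72, -0.59 and -0.06, a mean of -0.46 ± 0.35 (exact sign-flip permutation test, two-sided p = 0.25, the smallest that 3 arrays allow); it turned to 0.08 with the mean over probes.

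Rnf146, the ubiquitin ligase that recognises the poly(ADP-ribose) put on axin by tankyrase, did not pass at either probe. Probe A_52_P183071 had 563, 847 and 506 in the null cultures and 588, 1096 and 715 in het, with ratios of -0.05, -0.32 and -0.48 (-0.28 ± 0.22, adjusted p = 0.0591, 95% confidence interval -0.54 to -0.02). It passed as lower without replicate 1 (-0.40, adjusted p = 0.0408) and with dye as a term (-0.33, adjusted p = 0.0036), and lay at -0.18 without replicate 3 (adjusted p = 0.118) and at -0.09 with the mean over probes. The second probe, A_52_P256399, annotated with another transcript of the gene, lay the other way at 0.08, 0.11 and 0.13 (0.11 ± 0.03, adjusted p = 0.349).

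**Figure D3:**
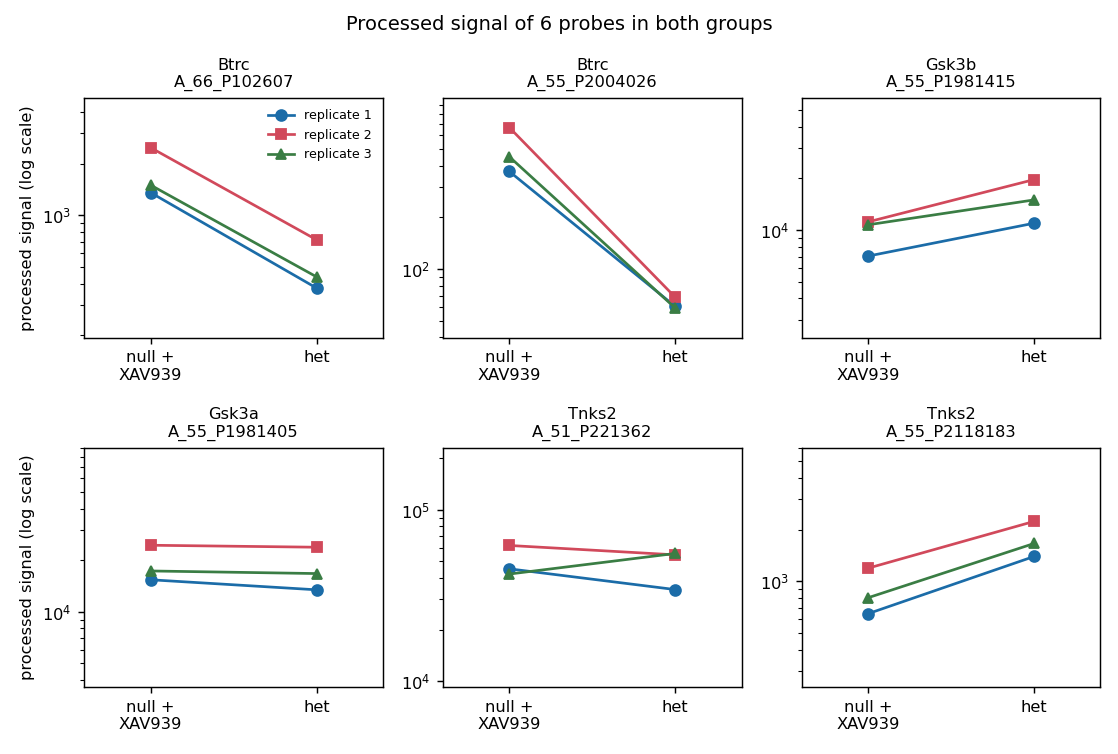
Processed signal (y axis, log scale, same span in each panel) in null plus XAV939 (left) and het (right) for 6 probes, with a line for each of the 3 arrays. Both Btrc probes slope down towards het on every array, Gsk3b and the Tnks2 probe A_55_P2118183 slope up, Gsk3a is close to flat, and the lines of the Tnks2 probe A_51_P221362 cross.

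Of the scaffold genes Apc fell, and Axin1 lay higher without passing. Axin1, whose protein is the limiting part of the complex and the substrate of tankyrase, had 1777, 3224 and 2395 in the null cultures, against 1529, 2556 and 1509.7 in het. It was higher in the null cultures on every array, most on replicate 3. The ratios of 0.10, 0.23 and 0.59 gave a mean of 0.31 ± 0.25, just short of the threshold (adjusted p = 0.0529, 95% confidence interval 0.03 to 0.58). Axin1 passed in 5 of the 16 alternatives, including without replicate 1 (0.41, adjusted p = 0.0412) and when p-values were adjusted over 1 probe per gene (adjusted p = 0.0495). Replicate 3 carried much of the value, which was 0.16 without it (adjusted p = 0.136).

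Axin2, the paralog that canonical Wnt signalling induces, had 34.7, 86.0 and 47.0 in the null cultures and 50.9, 124.5 and 59.7 in het. In the null cultures it stood well above background on 2 of 3 arrays. Its ratio of -0.12 ± 0.10 did not pass (adjusted p = 0.31), though it passed as lower, at -0.48 (adjusted p = 0.0165), on the Feature Extraction log ratio. The ratio of Axin1 exceeded that of Axin2 by 0.26, 0.43 and 0.61 on the 3 arrays, a mean of 0.43 ± 0.17 (exact sign-flip permutation test, two-sided p = 0.25, the smallest possible). With the Feature Extraction log ratio the difference was 0.88.

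Apc, the tumour suppressor that binds both axin and β-catenin, had a dim probe with 42.3, 106.4 and 110.8 in the null cultures, against 108.0, 248.6 and 180.5 in het. The null cultures were lower on each array. Log2 ratios of -0.53, -0.73 and -0.38 gave -0.55 ± 0.18, 1.46-fold lower (adjusted p = 0.00228). The signal was low, and the size varied with the processing. It ran from -0.21 with marked backgrounds kept to -0.90 with another background subtraction. With the Feature Extraction log ratio, which also differs in normalisation, the size was -1.09. The other Apc probe was not tested, since it stood well above background on 0 of 3 arrays in the null RNA and on 1 of 3 in het.

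Among the kinases, Csnk1a1 and Gsk3b fell and Gsk3a did not pass. Csnk1a1, casein kinase 1α, the priming kinase, had 13975, 20215 and 14474 at probe A_51_P453856 in the null cultures, against 17250.3, 23539 and 20421 in het. Its ratios hardly varied, at -0.38, -0.36 and -0.44 (-0.39 ± 0.04, 1.31-fold lower, adjusted p = 0.00754). Probe A_52_P339722 fell further, at -0.68, -0.65 and -0.55 (-0.62 ± 0.07, 1.54-fold lower, adjusted p = 0.000643), and did not pass with median centring (-0.42, adjusted p = 0.16).

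Gsk3b, which encodes GSK-3β, fell at all 3 of its probes. The brightest, A_55_P1981415, had 7059, 11172 and 10744 in the null cultures, against 10973, 19712 and 15005 in het, with ratios of -0.64, -0.78 and -0.56 (-0.66 ± 0.11, 1.58-fold lower, adjusted p = 0.000543). The other probes fell by less, A_51_P514412 at -0.31 ± 0.17 (adjusted p = 0.0337) and A_66_P104190 at -0.32 ± 0.09 (adjusted p = 0.0221). They passed in 7 and 8 of 14 alternatives, with adjusted p up to 0.302 and 0.631. Without replicate 1 (-0.23 and -0.37, adjusted p = 0.242 and 0.0564) or replicate 2 (-0.30 at both, adjusted p = 0.172 and 0.164) neither passed. All 9 ratios of the gene lay below 0 under the processing used here. The smallest was -0.13, for A_51_P514412 on replicate 3. There the processed signal was 563 in the null culture and 551 in het, and the authors' value was 0.31.

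Gsk3a, the paralog gene for GSK-3α, had 15380.4, 24449 and 17310.2 in the null cultures and 13441, 23809 and 16718 in het. Its ratios were 0.13, -0.09 and 0.14, with a mean of 0.06 ± 0.13 (adjusted p = 0.649, 95% confidence interval -0.18 to 0.29), and 0.36 with median centring (adjusted p = 0.224). GSK-3α and GSK-3β are known to stand in for each other in the destruction complex of mouse embryonic stem cells. At the brightest probes, under the processing used here, the difference in change between their genes was steady. The ratio of Gsk3a exceeded that of Gsk3b by 0.76, 0.69 and 0.70, a mean of 0.72 ± 0.04 (exact sign-flip permutation test, two-sided p = 0.25, the smallest that 3 arrays allow). This is 1.64-fold in change, not in level. With the mean over the Gsk3b probes the difference was 0.49. In the authors' values it was less even at the same brightest probes. There Gsk3a had 0.14, -0.16 and 0.13 on replicates 1, 2 and 3, and Gsk3b had -0.91, -0.95 and -0.27.

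The promoter windows of both GSK-3 genes are shown because these paralogs carry the same step and differed in ratio. They run from 250 bases before to 50 after the start in RefSeq's GRCm38.p6 annotation, with capitals for CTTTGA or CTTTGT on either strand (TCAAAG and ACAAAG when read from the other), the core that TCF and LEF factors, the DNA-binding partners of β-catenin, are known to bind. The Gsk3b window lies at chr16:38088751-38089050 on the plus strand and the Gsk3a window at chr7:25237802-25238101 on the minus strand.
Gsk3b: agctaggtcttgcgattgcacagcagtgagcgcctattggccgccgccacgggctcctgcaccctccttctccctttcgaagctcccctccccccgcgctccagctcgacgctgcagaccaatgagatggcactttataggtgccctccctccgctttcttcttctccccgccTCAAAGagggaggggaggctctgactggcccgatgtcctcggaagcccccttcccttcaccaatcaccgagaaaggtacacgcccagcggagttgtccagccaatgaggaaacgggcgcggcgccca
Gsk3a: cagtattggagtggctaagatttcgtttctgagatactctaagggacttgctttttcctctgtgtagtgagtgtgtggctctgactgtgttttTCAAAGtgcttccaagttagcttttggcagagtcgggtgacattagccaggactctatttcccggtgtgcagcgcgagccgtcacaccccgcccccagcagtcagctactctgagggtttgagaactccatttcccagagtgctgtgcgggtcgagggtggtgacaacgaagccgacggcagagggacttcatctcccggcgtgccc

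Each window holds 1 match, at bases 174 to 179 in Gsk3b and at bases 94 to 99 in Gsk3a. The count of this core is thus the same in both, and no other motif was searched. Such a match is held by 31.2% of all 32851 promoter windows of this length. Windows were found for 5 of the 10 genes, 7 windows in all, and those of Ctnnb1, Rnf146 and Tnks2 had no match. The Gsk3b window was 63.0% G or C, the Gsk3a window 54.3% and the Ctnnb1 windows 75.0% and 75.3%, whereas those of Rnf146 had 42.3% and 42.7%, against a median of 52.7% over all windows.

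Btrc, which encodes the F-box protein β-TrCP1 that hands phosphorylated β-catenin to the ubiquitin ligase, rose most. At probe A_66_P102607 it had 1357, 2481 and 1500.6 in the null cultures, against 377, 720.0 and 438 in het. On each array the null value lay above the het value. The ratios of 1.41, 1.44 and 1.56 gave 1.47 ± 0.08, or 2.76-fold higher (adjusted p = 5.31e-06). The second probe, A_55_P2004026, had 370.0, 668 and 451 in the null cultures, against 60.4, 68.3 and 59.1 in het, with ratios of 1.43, 1.77 and 1.58 (1.59 ± 0.17, 3.02-fold higher, adjusted p = 5.31e-06). It did not pass with marked backgrounds kept (0.81, adjusted p = 0.111) and reached 2.95 with the Feature Extraction log ratio. The second probe too was higher in the null cultures on every array. The brighter probe passed under all 16 alternatives other than the direction of replicate 3, with values from 1.05 to 1.80, and its dye component was -0.07 (adjusted p = 0.624).

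Fbxw11 encodes β-TrCP2, the paralog that binds the same phosphorylated motif. At its brighter probe it had 21615, 32552 and 19554 in the null cultures and 18531, 27446 and 23110 in het, with ratios of 0.34, 0.37 and -0.30 (0.14 ± 0.38, adjusted p = 0.437, 95% confidence interval -0.19 to 0.46). Without replicate 3 it passed as higher (0.36, adjusted p = 0.00383). As at the bright Tnks2 probe, the sign changed on replicate 3 (dye component 0.33, with the same limit). The other Fbxw11 probe lay at -0.08 ± 0.09 (adjusted p = 0.513). The ratio of Btrc exceeded that of Fbxw11 by 1.06, 1.07 and 1.86, a mean of 1.33 ± 0.46 (exact sign-flip permutation test, two-sided p = 0.25, the smallest possible). The mean is a 2.51-fold difference in change, not in level. The difference was 1.07 without replicate 3. It ran from 0.89 to 1.73 over 15 alternatives other than the direction of replicate 3. The signal of Fbxw11 was the higher in both groups, which does not rank the levels of the 2 RNAs, since signals differ between probes. The 2 Btrc probes themselves had 1357 and 370.0 in the null culture of replicate 1.

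Ctnnb1, the gene of β-catenin, the protein that all the others regulate, had 14782, 21482 and 12974 in the null cultures and 11726, 17200.0 and 15244 in het. It was higher in the null cultures on replicates 1 and 2 and lower on replicate 3. The ratios of 0.22, 0.16 and -0.08 gave a mean of 0.10 ± 0.16 (adjusted p = 0.447), and the 95% confidence interval ran from -0.14 to 0.34. With median centring the mean was 0.39 (adjusted p = 0.28). The protein was not measured.

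**Figure D4:**
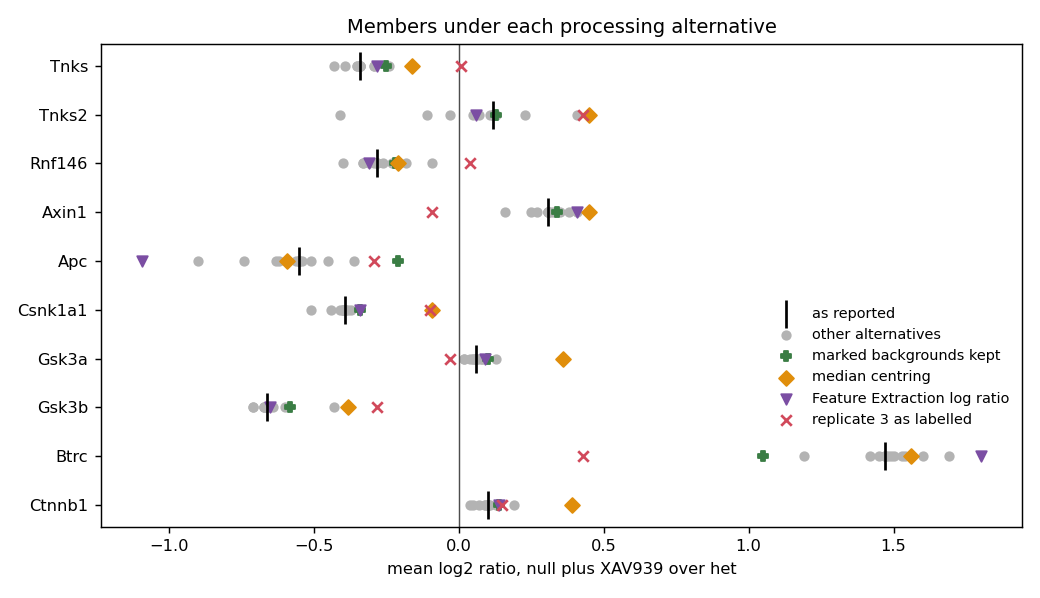
Mean log2 ratio of null plus XAV939 over het (x axis) for each member (rows) under each processing alternative, with the value reported here as a black bar. Btrc stays at 1.05 or above except with replicate 3 as labelled (0.43), Tnks2 lies on both sides of 0, and median centring (diamonds) moves most members to higher values.

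The rest of the pathway was read from lists written from general knowledge, to be set beside the 64.0% of all tested genes called, 31.3% higher and 32.7% lower. Of 31 other genes of the destruction complex and its regulators 11 rose, 6 fell and 14 did not pass (54.8% called, median 0.20). The largest passing changes with the same sign on all arrays were falls. Dab2, an endocytic adaptor that also binds axin, lay at -3.69 ± 0.49 or 12.9-fold lower (limma adjusted p = 7.81e-07). Amer3, a paralog of the APC-binding protein AMER1, lay at -1.77 ± 0.16. Ppp2r5c, a regulatory subunit of protein phosphatase 2A, lay at -0.75 ± 0.26, and at 0.15 with the mean over its probes. Of 17 partners and substrates of tankyrase 4 rose and 3 fell (41.2% called, median 0.07). The angiomotin genes Amot (-1.58 ± 0.52) and Amotl2 (-1.08 ± 0.13), whose proteins tankyrase is known to mark for degradation, fell, and the DNA repair gene Fancd2 rose (0.86 ± 0.13). Of 16 genes of the poly(ADP-ribose) polymerase family and its hydrolases 6 rose and 4 fell (62.5% called, median 0.03), with Parp12 (0.87 ± 0.23), Parp3 (0.65 ± 0.13) and Parp9 (0.63 ± 0.14) moving most.

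Downstream of the complex, 6 of 20 nuclear partners of β-catenin rose and 5 fell (55% called, median -0.02). Tcf7l2 fell (-1.17 ± 0.56), while Lef1 (1.11 ± 0.19), another of the DNA-binding partners, and the corepressor gene Tle4 (1.04 ± 0.16) rose. Of 11 genes that tie β-catenin to cell adhesion 4 rose and 6 fell (90.9% called, median -0.37), the endothelial cadherin gene Cdh5 (1.34 ± 0.24) and E-cadherin, Cdh1 (1.21 ± 0.25), among the rises and p120 catenin, Ctnnd1 (-0.88 ± 0.36), among the falls.

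Upstream, the list of coreceptor and receptor turnover genes also held the ligand genes' partners Porcn and Wls. Of its 10 genes 1 rose and 7 fell (80% called, median -0.45), against a median of -0.011 over all genes. Porcn (-1.35 ± 0.16) and Wls (-1.14 ± 0.08), which lipidate and carry Wnt ligands out of the cell, fell with Rnf43 (-2.44 ± 0.13), a ligase that removes Wnt receptors. Of 17 tested genes listed as Wnt targets, feedback genes among them, 4 rose and 9 fell (76.5% called, median -0.33). Some of these the lists above also hold. Rnf43, Ccnd1 (1.88 ± 0.10) and Cdx2 (-1.66 ± 0.19) moved most. The list genes named above passed limma with adjusted p from 5.71e-07 to 0.000822. With marked backgrounds kept 6 of them did not pass: Amer3 (-0.91, adjusted p = 0.0796), Fancd2 (0.52, 0.115), Parp12 (0.37, 0.0966), Parp3 (0.29, 0.137), Parp9 (0.41, 0.121) and Tle4 (0.60, 0.0786). With median centring Ctnnd1 (-0.55, adjusted p = 0.211) and Ppp2r5c (-0.51, 0.197) did not pass. Tcf7l2 passed at a smaller size with marked backgrounds kept (-0.49, adjusted p = 0.0239).

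**Figure D5:**
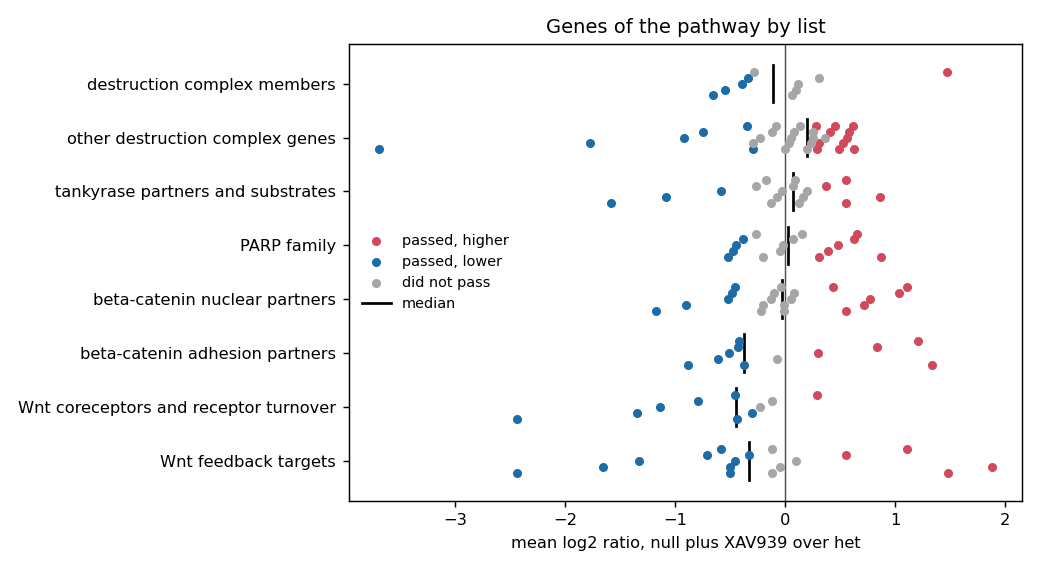
Mean log2 ratio of null plus XAV939 over het (x axis) of each tested gene in 8 lists (rows; points are spread vertically for legibility), red where higher and blue where lower at an adjusted p under 0.05, grey where not called; black ticks are list medians. The destruction complex members have their median at -0.11, and the coreceptor list, which also holds Porcn and Wls, has the lowest median, -0.45.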

How the data were processed

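The authors deposited Agilent Feature Extraction output for 3 arrays (version 11.5.1.1 per the file headers, 8.5.1.1 per the submitters' processing notes; probe design 026655, annotated on mm9). Median signals, backgrounds and processed signals are deposited as intensity, the last background-subtracted and dye-normalised per the file headers; the log ratio is deposited as log10 of Cy5 over Cy3, and marks for outlier, saturated and well above background spots as 0 or 1. The authors' value table holds log2 ratios, judged by regressing each column on the array's own log2 Cy5 over Cy3 (slopes 0.688, 0.799 and -0.797; r 0.885, 0.945 and -0.94). Column medians are 0.085, -0.08 and 0.053, and the sources used here name neither normalisation nor centring.

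Here median signals were corrected with normexp (offset 50; local backgrounds marked as outliers replaced by the channel's median), normalised by loess within arrays and averaged per probe, without controls and outlier spots, in limma 3.58.1 (R 4.3.3). Tested probes were those that every array marked as well above background in Cy3, Cy5 or both. The mean log2 ratio was set against 0 by limma's moderated test (8.51 degrees of freedom, 6.51 from the prior), adjusted by Benjamini and Hochberg over 24376 probes at a threshold of 0.05. Precision is limited by having 3 arrays (median SD of a probe 0.166). The test was also run on simulated ratios with far fewer changed probes than were called here. That run cannot show how accurate the test is in these data.

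Of 39429 probes 28025 matched 1 symbol, 11404 none and 0 several, through RefSeq accessions of GRCm38.p6. A gene was read at its brightest tested probe, other member probes beside it. From each list the 3 genes with the largest passing change of one sign on all arrays were named. Members and lists were chosen with earlier results of these data known. Replicate 1 lay on one slide, replicates 2 and 3 on another. Nothing shows whether the replicates came from separate lines, so p-values measure the spread between these arrays. Because 3 arrays make a single contrast, no gene was sought for a pattern like a member's.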

Additional observations from a re-analysis of the deposited data

How the results depend on the processing

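Apart from the direction of replicate 3, 16 alternatives were run. Of 160 member values under them 157 kept their sign; the 3 that reversed were all at Tnks2: -0.41 with the mean over a gene's probes, -0.11 without replicate 1 (0.41, passing as higher, without replicate 3) and -0.03 with dye as a term. Of the 20 list genes named, the ones rerun, Ppp2r5c turned, to 0.15 with the mean over probes. With replicate 3 as labelled Tnks (0.01), Axin1 (-0.09), Gsk3a (-0.03) and Rnf146 (0.04) turned, and 0 probes and 0 members were called. Probes higher and lower numbered 7004 and 7659, against 3447 and 2554 with marked backgrounds kept, 4495 and 3180 with median centring (58.6% of calls higher, against 47.8%), and 4635 and 4849 with 1 probe per gene, which tests fewer features. Leaving out each replicate gave 5174 to 8057 higher and 5565 to 8744 lower, and 1 to 2 members higher and 2 to 5 lower. Members higher numbered 2 with the Feature Extraction log ratio, 1 probe per gene, the mean over probes and dye as a term, Axin1 being the second each time. Members lower numbered 2 with the Feature Extraction log ratio or marked backgrounds kept and 1 with median centring. The cause was not tested. Dye as a term and slide as a fixed term were chosen after the data were seen. Slide as a random block could not be fitted with 3 arrays. Each array sets both groups against each other, so the ratio tested is itself the paired difference. Dim probes, such as those of Apc, Axin2 and the second Btrc probe, moved with the background treatment.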
